A study of Mus musculus with 4 samples.

Results

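The genes described here are 10 genes that code for the calcium store of the sarcoplasmic reticulum and for the pumps that fill it. They were taken by name and role, with no threshold on a measured value: Atp2a1, Atp2a2, Sln, Pln, Casq1, Casq2, Srl, Hrc, Stim1 and Orai1, which are 10 of the 53647 genes in the count tables. Earlier results of these data were known when these genes were chosen. RNA sequencing of mouse primary myotubes gave 2 control libraries and 2 libraries of myotubes treated with the cytokine EDA-A2 (ectodysplasin A2, a ligand of the TNF family that binds the receptor EDA2R), and the comparison asks how the treatment changed gene expression. All 4 libraries came from wild-type cells, grown as myoblasts from pup limb muscle and then switched to horse serum to form myotubes. The treated myotubes received 250 ng/ml EDA-A2 for 24 h, RNA was taken 72 h after the start of differentiation, and the labels do not say what the control cells received. Nothing in the labels says that the libraries of a condition came from separate animals or cultures, so the p-values measure only the spread between these libraries, which may be technical.

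In skeletal muscle the sarcoplasmic reticulum holds the calcium that triggers contraction. SERCA pumps move calcium from the cytosol back into it at the cost of ATP, small membrane proteins such as sarcolipin and phospholamban restrain the pumps, and calsequestrin and other luminal proteins bind the calcium that has been stored. When the store runs low, STIM1 in the reticulum membrane senses the loss and opens the plasma membrane channel ORAI1, which is called store-operated calcium entry.

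Each library held 29444155 to 29746863 counts on genes, and TMM normalization factors lay between 0.972 and 1.03. A floor of 3 counts corresponded to 0.101 to 0.102 CPM, the count scaled to library size, a limit that covers counting error only, and every member lay far above it. Nfkbie, an inhibitor of NFκB that is itself an NFκB target, rose from 150.2 ± 18.6 to 1335 ± 74.0 normalised counts (SD, n = 2), and Nfkb2, an NFκB subunit, from 1007 ± 1.61 to 3734 ± 105. Relb and Nfkbia, the other genes of that list of 4, also rose. The muscle identity of the cultures was plain from their RNA: the 13 myotube markers summed to 29162 to 32068 TPM (a share of all transcripts, corrected for gene length) in control and 24393 to 24497 TPM in EDA-A2 libraries. All 13 had negative log2 fold changes and 7 of them passed the test as lower, among them Myh3 (embryonic myosin heavy chain), Acta1 and Actc1 (skeletal and cardiac actin). In these bulk samples, fewer myotubes and less RNA per myotube cannot be told apart. Their part in the lower values given below was not tested.

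RNA of cells other than myotubes was also looked for. Fibroblast markers summed to 831 and 839 TPM in control and 816 and 819 TPM in EDA-A2 libraries, with Lum and Thy1 at 0 counts. Most of the sum was Col3a1 (659 ± 73.7 TPM in control, SD, n = 2), while Col1a2, Dcn and Pdgfra lay at 0.222, 1.06 and 3.42 TPM there. None of the 5 tested genes was called by edgeR or by DESeq2. At an unadjusted p under 0.05 there were 2, Col1a1 with a log2 fold change of -0.46 and Dcn with 0.48. Myoblast markers summed to 383 and 450 TPM in control and 374 and 408 TPM in EDA-A2 libraries, and 1 of 4 (Cdh15) was lower. Markers of dividing cells lay at 397 to 482 TPM with no gene of 5 called by edgeR or DESeq2 and 0 at an unadjusted p under 0.05. Endothelial markers stayed at 0.744 to 1.01 TPM, and macrophage markers at 7.42 and 9.01 TPM in control and 10.6 and 12.8 TPM in EDA-A2 libraries, with no called gene by edgeR or DESeq2 (1 macrophage gene and 0 endothelial genes of those tested at an unadjusted p under 0.05). Smooth muscle markers summed to 945 and 1134 TPM in control and 1195 and 1308 TPM in EDA-A2 libraries. Most of this was Acta2, at 851 ± 130 TPM in control and 1054 ± 72.1 TPM in EDA-A2 myotubes (SD, n = 2). Myh11 had 5 counts in each library and Cnn1 had 5 to 16, so the sum says little of smooth muscle cells. Of 4 tested genes edgeR called 1, Tagln, as lower and DESeq2 called 0, while Acta2, the most abundant, had a log2 fold change of 0.23 without overlap (unadjusted p = 0.0193, adjusted p = 0.188). Heart muscle markers had 2 of 3 tested genes lower (Myh6 and Tnnt2), while Nppa and Myl7, which define atrial muscle, were at 0 counts in all 4 libraries. Of the fibre type markers, 2 of 5 slow genes (Myh7 and Tnni1) and 3 of 8 fast genes (Mylpf, Tnnc2 and Tnni2) were lower, and 1 fast gene, Actn3, was higher. The fast and myotube lists shared Tnnt3, Tnni2 and Tnnc2, so Tnnc2 and Tnni2 were also among the lower myotube markers.

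All 10 members passed the filter on low counts. Of these, 2 were called at an adjusted p under 0.05, Stim1 and Hrc, both lower in EDA-A2 myotubes (edgeR's quasi-likelihood test, Benjamini-Hochberg adjustment over 15173 genes). Across all genes tested, 4.57% were called, 2.13% as lower and 2.45% as higher. At an unadjusted p under 0.05 there were 7 of 10 members, beside 15.6% of all genes. Log2 fold changes ran from -0.72 (Pln) to 0.34 (Sln), with a median of -0.23, beside a median of -0.00 over all genes tested. They were negative for 8 members and positive for Sln and Casq1. Over all genes, 50.5% were negative. Normalised counts did not overlap between conditions for 9 of 10 members, 8 lower and 1 higher, beside 45% of all genes in either direction and 22.2% in the lower direction. The called changes amounted to -18.1% for Hrc and -21.8% for Stim1.

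**Figure D1:**
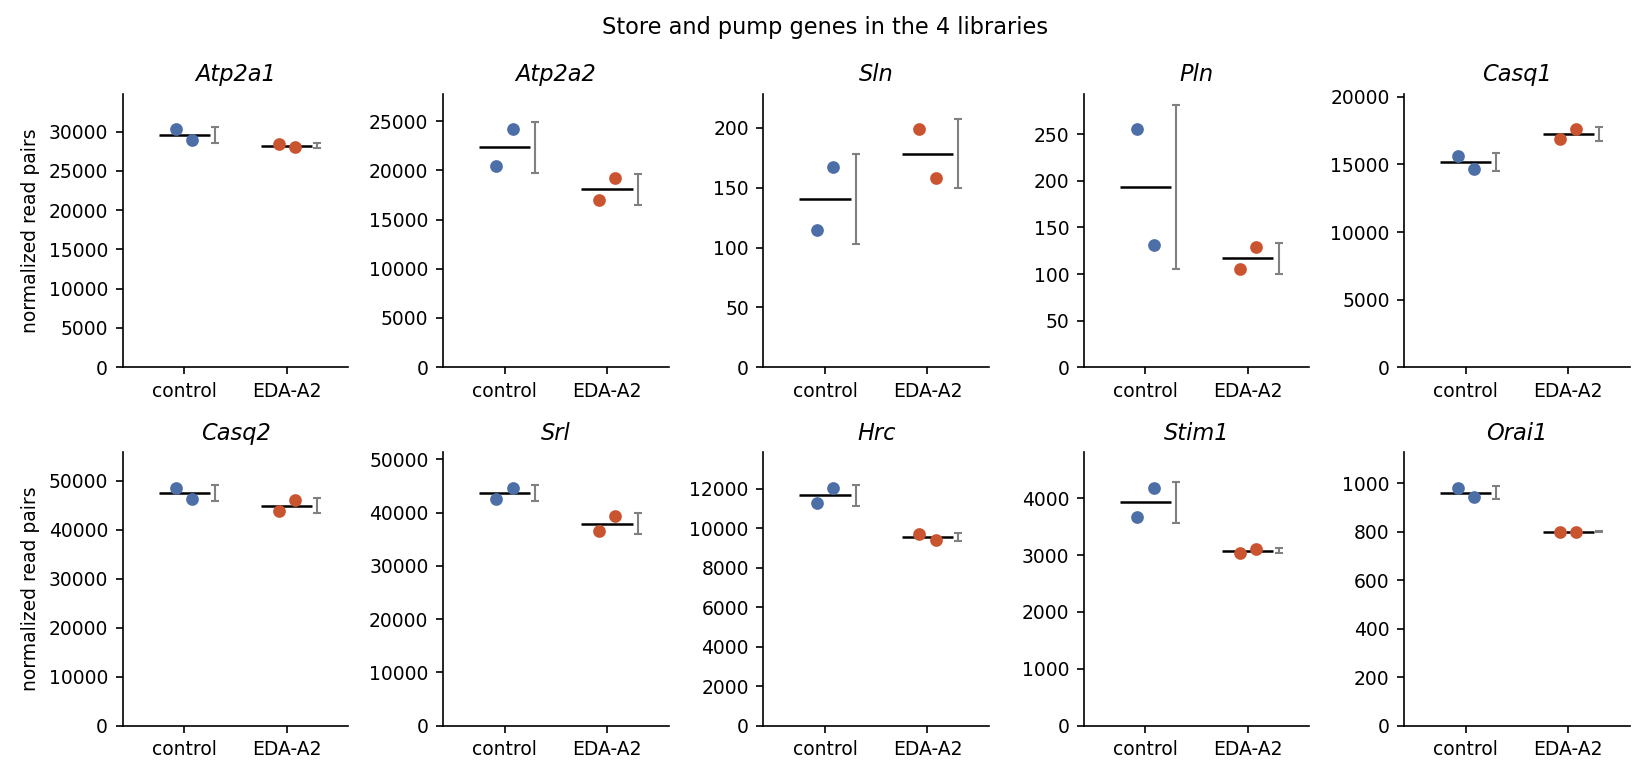
Normalised counts of the 10 members in each library (1 panel a gene, points are single libraries, black bars the mean of 2 libraries, grey whiskers 1 SD either side). Only Sln has overlapping conditions, and control replicate 1 stands above the other 3 libraries for Pln.

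Per length, the 10 genes spanned the range from Casq2 at 1307 ± 27.8 TPM to Pln at 4.92 ± 2.18 TPM in control myotubes (SD, n = 2). Behind Casq2 came Hrc (706 ± 40.8 TPM) and Atp2a1 (689 ± 15.02 TPM), whose control libraries overlapped and whose order was the reverse in EDA-A2 myotubes. Srl (607 ± 28.2 TPM), Casq1 (384 ± 12.5 TPM) and Atp2a2 (287 ± 37.2 TPM) followed. Stim1 (59.4 ± 6.23 TPM) and Orai1 (57.7 ± 0.993 TPM) did not differ beyond their spread, and Sln (14.4 ± 4.01 TPM) lay between them and Pln. When the longest transcript replaced the union of exons as the length of a gene, Atp2a1 came before Hrc in control myotubes too, and in EDA-A2 myotubes Casq1 came before Hrc and Srl. With that length Stim1 stood at 98.6 TPM and Orai1 at 51.7 TPM in control myotubes, so their near equality depended on the gene model. The summed level of the 10 genes was 4076 and 4158 TPM in control and 3988 and 4017 TPM in EDA-A2 libraries.

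**Figure D2:**
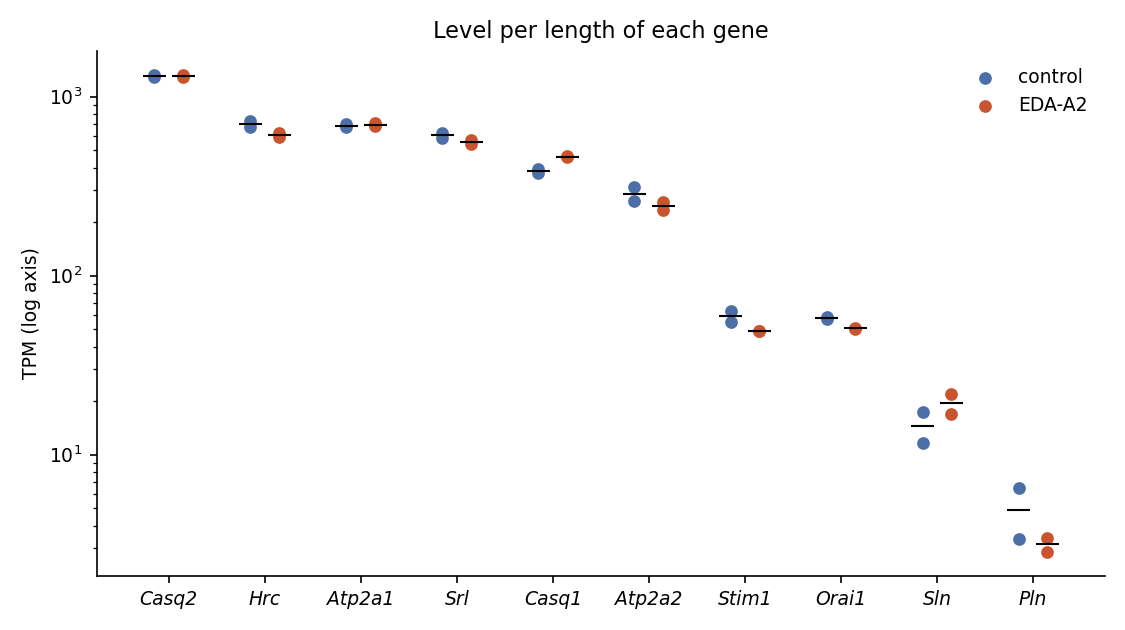
Levels per length of the 10 members in TPM on a log axis, by library and condition, with black bars at the mean. Casq2 is the highest and Pln the lowest in both conditions.

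Atp2a1 codes for SERCA1, the pump of fast fibres (chr7:126045013-126063423, minus strand, GRCm39). Its normalised counts were 30297 and 28872 in control and 28453 and 27979 in EDA-A2 libraries. The EDA-A2 libraries lay just under the controls without overlap, yet the gap between the nearest libraries was smaller than that between the 2 controls. Its log2 fold change of -0.07 had a 95% interval from -0.21 to 0.08 (adjusted p = 0.722). On the TPM scale the libraries overlapped, with means of 689 ± 15.02 TPM in control and 695 ± 19.4 TPM in EDA-A2 myotubes, so the sign depended on the scale. Part of the gene shares 1188 exonic bases with Rabep2 on the opposite strand, which itself had 240 to 286 counts.

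Atp2a2 codes for SERCA2, the pump of slow fibres and of the heart and, as its broad isoform, of most other cells (chr5:122591575-122640903, minus strand). It had 20485 and 24189 normalised counts in control and 16967 and 19209 in EDA-A2 libraries. Both EDA-A2 libraries were below both controls, and the libraries within a condition were farther apart than for Atp2a1. This difference, a log2 fold change of -0.30 ± 0.09 (SE) or -19.0%, did not pass (adjusted p = 0.0621). It passed with DESeq2's Wald test (adjusted p = 0.0330). With single libraries left out, edgeR gave a log2 fold change of -0.40 without EDA-A2 replicate 2 and -0.22 without EDA-A2 replicate 1. It was -0.42 without control replicate 1 and -0.18 without control replicate 2.

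Set against each other, Atp2a1 was present at 2.68 and 2.16 times the TPM of Atp2a2 in control and at 3.04 and 2.64 times in EDA-A2 libraries. These ratios overlapped (log2 difference 0.23, two-sided exact permutation test, p = 0.667), and the difference ran from 0.080 without control replicate 2 to 0.39 without control replicate 1. With 2 libraries against 2 this test cannot go below 0.333. The summed level of both pumps was 960 and 992 TPM in control and 939 and 942 TPM in EDA-A2 libraries, a log2 difference of -0.05 at that smallest p, which became -0.14 with DESeq2 size factors in place of TPM scaling.

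Of the pump regulators, sarcolipin (Sln, chr9:53742537-53761846, plus strand) is the small inhibitor typical of skeletal muscle, which uncouples the pump's ATP use from calcium transport. Its normalised counts were 114 and 167 in control and 199 and 158 in EDA-A2 libraries. One EDA-A2 library lay above both controls and the other between them. Between conditions the log2 fold change was 0.34 (95% interval -0.07 to 0.75, adjusted p = 0.45), and leaving out control replicate 1 or 2 gave 0.095 and 0.64. It stood at 0.17 without EDA-A2 replicate 1 and 0.50 without EDA-A2 replicate 2.

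Phospholamban (Pln, chr10:53199622-53223512, plus strand) is the inhibitor best known from the heart and slow fibres. It had 256 and 131 normalised counts in control and 105 and 129 in EDA-A2 libraries. The conditions did not overlap, but control replicate 2 lay within a few counts of EDA-A2 replicate 2, and control replicate 1 stood apart. On the TPM scale the conditions overlapped. The log2 fold change of -0.72 (95% interval -1.26 to -0.19, adjusted p = 0.135) became -0.16 without control replicate 1 and -1.13 without control replicate 2. The same library was also the highest for Myl2, a slow myosin light chain, at 122 normalised counts against 37.2 to 48.4 in the other 3, and for Myh2, the type IIa myosin, at 269.9 against 56.9 to 71.6. Both were picked for these high values. Of other slow markers, Myh7 was higher in control replicate 1 than in replicate 2 (36728 and 27438), but Tnnt1 was nearly level (26353 and 25872). The fibroblast marker Col1a1 was also higher there (9277 and 5088). Whether these go together was not tested.

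Relative to the pumps both regulators were scarce. For each Sln transcript there were 82.9 and 57.5 pump transcripts (Atp2a1 and Atp2a2 summed, TPM) in control and 43.3 and 55.6 in EDA-A2 libraries, groups that did not overlap (log2 difference of Sln per pump 0.49, exact permutation p = 0.333, the smallest possible). That difference was 0.23 without control replicate 1, 0.76 without control replicate 2, 0.31 without EDA-A2 replicate 1 and 0.67 without EDA-A2 replicate 2. For each Pln transcript there were 148.6 and 294 pump transcripts in control and 329 and 274 in EDA-A2 libraries, which overlapped (exact permutation p = 0.667).

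Among the proteins of the lumen, calsequestrin 1 (Casq1, chr1:172037459-172049328, minus strand) is the calcium buffer of fast fibres. It had 15638 and 14679 normalised counts in control and 16894 and 17607 in EDA-A2 libraries. Both treated libraries were above both controls, the only member for which this was so. A log2 fold change of 0.19 ± 0.07 (SE), or 13.8%, did not pass (adjusted p = 0.169), except when libraries were scaled by total counts alone (adjusted p = 0.0484).

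Calsequestrin 2 (Casq2, chr3:101993234-102056307, plus strand) is the form of the heart, which slow and developing skeletal muscle also makes. Its normalised counts were 48616 and 46364 in control and 43845 and 46009 in EDA-A2 libraries. The treated libraries were lower, with control replicate 2 and EDA-A2 replicate 2 nearly level. With a log2 fold change of -0.08 (95% interval -0.23 to 0.07, adjusted p = 0.678) Casq2 did not pass, and its TPM values overlapped at 1307 ± 27.8 in control and 1308 ± 23.6 in EDA-A2 myotubes.

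The heart form made up most of the calsequestrin RNA in all 4 libraries. Casq2 took 77.2% and 77.4% of the calsequestrin TPM in control and 73.8% and 73.9% in EDA-A2 libraries. As a ratio, Casq2 to Casq1 was 3.38 and 3.43 in control and 2.82 and 2.84 in EDA-A2 myotubes. The gap between conditions was many times the spread within each, at a log2 difference of -0.27 and an exact permutation p of 0.333, the smallest that 4 libraries can give. This ratio was not among those planned beforehand. With the longest transcript as length the ratios were 2.16 and 2.19 against 1.80 and 1.81, so their size depended on the gene model. Another length scales the ratio alike in all 4 libraries, so it could not alter their order or the log2 difference. The sum of both was 1720 and 1663 TPM in control and 1749 and 1791 TPM in EDA-A2 libraries (log2 difference 0.07, exact permutation p = 0.333). This holds for the TPM scale, on which Casq2 was level. By normalised counts Casq2, the larger part, was lower in EDA-A2 libraries (log2 fold change -0.08). The sign of the change in the sum may thus depend on the scale, which was not tested.

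**Figure D3:**
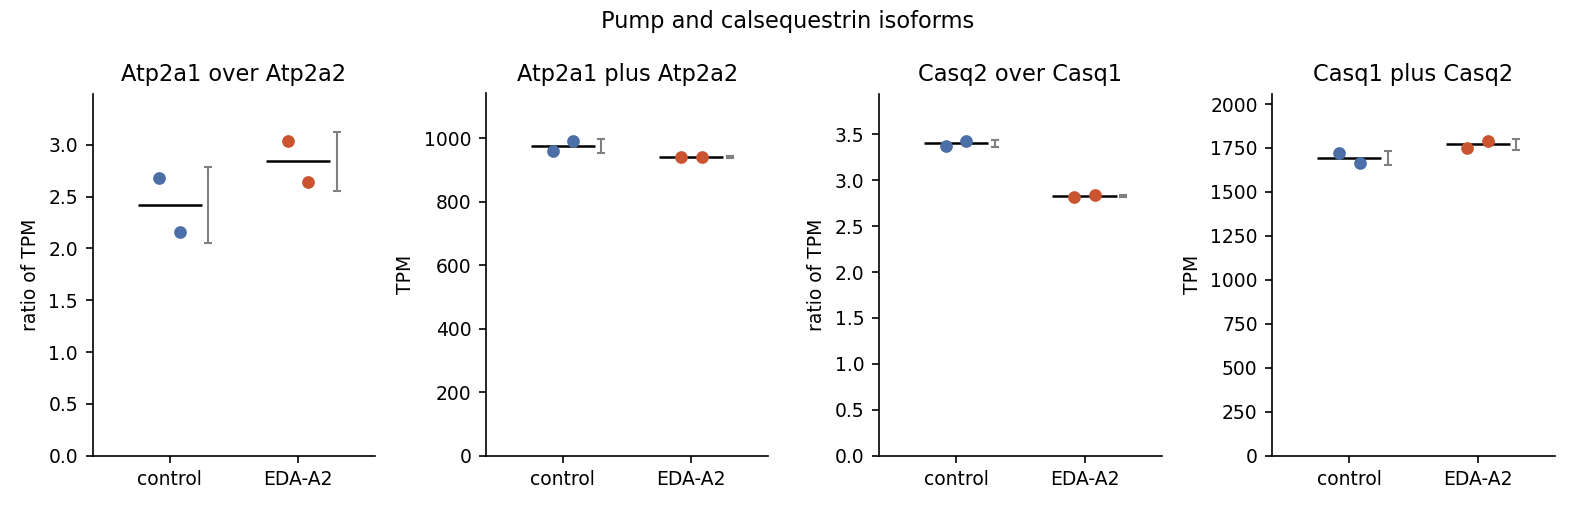
Ratios of TPM values within each library for the pump and calsequestrin pairs, and the sum of each pair in TPM (points are libraries, black bars means, grey whiskers 1 SD either side). The Casq2 to Casq1 ratio sits at 3.38 and 3.43 in control and at 2.82 and 2.84 in EDA-A2 libraries, while the pump ratios overlap between conditions.

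Sarcalumenin (Srl, chr16:4294124-4359680, minus strand), a luminal glycoprotein that binds calcium and stabilises SERCA, had 42553 and 44667 normalised counts in control and 36554 and 39290.2 in EDA-A2 libraries. Both treated libraries were below both controls. At a log2 fold change of -0.20 ± 0.07 (SE), or -13.0%, Srl did not pass (adjusted p = 0.149).

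The histidine-rich calcium binding protein (Hrc, chr7:44984681-44988401, plus strand), a luminal buffer that also contacts SERCA and the release complex, fell. Its normalised counts were 11306 and 12058 in control and 9708 and 9427 in EDA-A2 libraries, or 11682 ± 532 and 9567 ± 199 (SD, n = 2). The gap between the nearest libraries was larger than the spread within either condition. The log2 fold change was -0.29 ± 0.07 (SE, 95% interval -0.43 to -0.14, adjusted p = 0.0238). The call was lost with total counts as scaling (adjusted p = 0.0725) and without the filter on low counts (0.155), where 86 genes passed in place of 694. It was also lost with any 1 library left out, but without control replicate 1 or 2 no other gene passed either. The log2 fold change of Hrc then lay between -0.33 and -0.24.

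For store-operated entry, Stim1 (chr7:101916979-102086526, plus strand), the luminal calcium sensor, fell and had the smallest p of the 10. It had 3670.0 and 4185 normalised counts in control and 3042 and 3105 in EDA-A2 libraries, or 3927 ± 364 and 3073 ± 44.6 (SD, n = 2). The treated libraries nearly coincided and both controls lay above them, with control replicate 2 the higher. The log2 fold change was -0.35 ± 0.07 (SE, 95% interval -0.51 to -0.19, adjusted p = 0.0119). It did not pass without the filter on low counts (adjusted p = 0.197), where 86 genes passed in place of 694. Nor did it pass with any 1 library left out, but without control replicate 1 or 2 no other gene did either. The log2 fold change of Stim1 then lay between -0.44 and -0.26.

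Orai1 (chr5:123153043-123168535, plus strand), the pore of the channel that Stim1 opens, had 981 and 941 normalised counts in control and 798 and 800.0 in EDA-A2 libraries. The groups lay apart with little spread in either. A log2 fold change of -0.27 ± 0.08 (SE, 95% interval -0.44 to -0.09) did not pass (adjusted p = 0.0946). Stim1 to Orai1 stood at 0.941 and 1.12 in control and 0.959 and 0.976 in EDA-A2 libraries by TPM, with overlap (exact permutation p = 1). With the longest transcript as length it was 1.74 and 2.07 in control and 1.78 and 1.81 in EDA-A2 libraries. Another length scales the ratio alike in all libraries, so it could not alter the overlap.

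**Figure D4:**
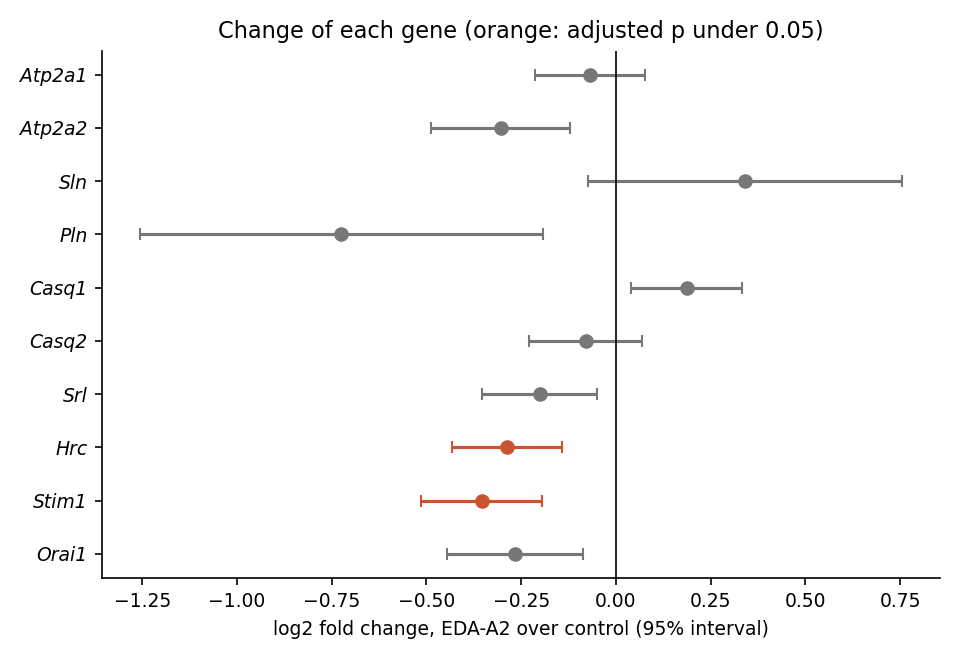
Log2 fold changes of the 10 members, EDA-A2 against control, with 95% intervals from edgeR. Hrc and Stim1 pass the threshold, and Sln and Casq1 are the members above 0.

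The stretches before the start sites of the 2 called genes are shown because both genes moved in the same direction. They come from the RefSeq promoter table (GRCm38.p6, another build than the gene positions above), run 5′ to 3′ on the gene's strand from 250 to 51 bases before the start, and have E-boxes in capitals. An E-box is CANNTG, the site of MyoD and related factors. It reads the same pattern on both strands, and the MEF2 and κB motifs were also searched on both.
Hrc, chr7:45335019-45335218 (plus strand): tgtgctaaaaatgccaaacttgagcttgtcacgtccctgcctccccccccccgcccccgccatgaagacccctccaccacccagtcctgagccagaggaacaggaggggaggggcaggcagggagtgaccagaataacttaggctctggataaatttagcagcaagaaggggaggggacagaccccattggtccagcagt
Stim1, chr7:102267569-102267768 (plus strand): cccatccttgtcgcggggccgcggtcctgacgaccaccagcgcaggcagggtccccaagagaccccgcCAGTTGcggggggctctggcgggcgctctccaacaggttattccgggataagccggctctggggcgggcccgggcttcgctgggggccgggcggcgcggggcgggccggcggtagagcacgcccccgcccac
The Stim1 window, with 76.5% G and C, held 1 E-box that starts 182 bases before the start site. The Hrc window, with 59% G and C, held none. Over 32851 promoters of the table, 59% of windows of this length held an E-box. Of the 7 members in the table (not Atp2a2, Sln and Srl), Pln, Casq1, Casq2 and Orai1 also had E-boxes, and Atp2a1 had none. None of the 7 held a κB motif, which 7.54% of all windows did, and Casq2 alone held a MEF2 motif, which 2.42% did. A match is a description of these letters only.

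The genes whose counts ran most like those of Stim1 over the 4 libraries were found by distance of centred log2 normalised counts among 10935 protein-coding genes with a mean of at least 100. They were Klhl13 (distance 0.0206), B4galt4 (0.0297), Igfbp5 (0.0303), Pde1a (0.0412) and Tppp3 (0.0421), with log2 fold changes of -0.36, -0.37, -0.33, -0.38 and -0.33. Klhl13, Igfbp5 and Tppp3 passed the test and B4galt4 and Pde1a did not. None of them was a calcium-handling gene of the lists used here.

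Beyond the members, 84 other genes of calcium handling were in the tables and 76 were tested. The test called 5, a share of 6.58% beside the 4.57% of all genes. Of these, 1 was higher and 4 were lower, against 3 higher and 2 lower when libraries were scaled by total counts, and the median over the 76 was -0.02 on the log2 scale. Of the 5, 4 belonged to the list of release channels and triad proteins, of which 20 of 20 were tested and 1 was higher and 3 lower (median -0.13). Caveolin 3 (Cav3), which shapes the T-tubule membrane, fell from 4760 ± 733 to 3137 ± 25.4 normalised counts (log2 fold change -0.60 ± 0.09, SE, adjusted p = 0.000826). Ryr3, the release channel isoform of developing muscle, rose from 625 ± 8.79 to 930 ± 34.4 (0.57 ± 0.09, adjusted p = 0.00110). Cacna1s, the voltage sensor that couples the T-tubule to the store, fell from 7211 ± 376 to 5607 ± 120 (-0.36, adjusted p = 0.00527). Jph2, which tethers the reticulum to the surface membrane, also fell (-0.29, adjusted p = 0.0199). It is named although a fixed rule picked only 3 genes of the list.

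The main release channel Ryr1 was at 15260 ± 897 and 14086 ± 625 normalised counts and did not pass (log2 fold change -0.12, adjusted p = 0.499). Without control replicate 1 or 2, none of the 5 called genes passed, and no other gene did either. Log2 fold changes in these 2 fits were -0.43 and -0.75 for Cav3 and 0.59 and 0.56 for Ryr3. They were -0.31 and -0.41 for Cacna1s and -0.25 and -0.32 for Jph2. Without EDA-A2 replicate 1, Cacna1s and Jph2 did not pass, and without EDA-A2 replicate 2 Jph2 did not. Their direction was the same in each of these fits. Without the filter on low counts, where 86 genes passed in place of 694, none of them passed, and with total counts Jph2 did not (adjusted p = 0.0509).

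The remaining called gene was Mcu, the pore of the mitochondrial calcium uniporter and 1 of 9 genes of mitochondrial uptake, which fell from 6506 ± 214 to 5396 ± 80.9 normalised counts (log2 fold change -0.27, adjusted p = 0.0295). It did not pass with total counts (adjusted p = 0.0813) or with any library left out, at log2 fold changes from -0.30 to -0.23. Without control replicate 1 or 2 no other gene passed either. No gene was called among 3 other pumps and pump regulators, 14 luminal buffers and chaperones, 10 other genes of store-operated entry, 5 genes of surface extrusion, 5 cytosolic buffers and 10 genes of calcineurin and NFAT, by edgeR or by DESeq2. At an unadjusted p under 0.05 these lists held 0, 1, 2, 1, 1 and 0 genes. Among all 76 genes, 17 had an unadjusted p under 0.05, or 22.4% beside 15.6% of all genes.

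**Figure D5:**
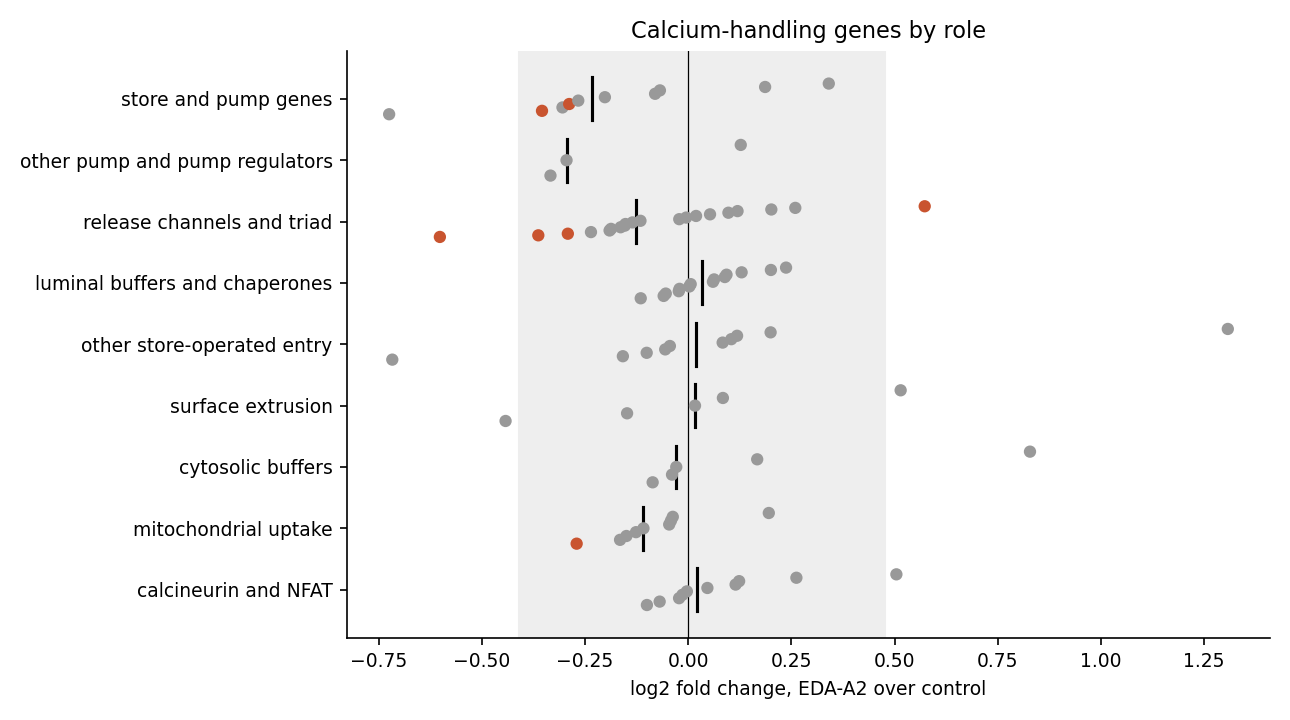
Log2 fold changes of the members and of the genes in each wider list of calcium handling, 1 point a gene, with a black tick at each median and shading from the 5th to the 95th percentile of all genes (-0.41 to 0.48). The orange points, past the threshold, are Hrc and Stim1 among the members, Cav3, Cacna1s, Jph2 and Ryr3 in the release list, and Mcu.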

How the data were processed

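Poly(A) RNA libraries (TruSeq Stranded mRNA) of 2 control and 2 EDA-A2 myotube samples were used, grouped by the treatment label. Per the labels, the authors deposited 1 table of raw HTSeq counts per library, not normalised or filtered. The submitters' processing notes name FastQC 0.11.9, MultiQC 1.12, Trim Galore 0.6.5, STAR 2.7.3a, HTSeq 0.11.1 and GRCm39. The strand option and annotation release of the counting are not given in the sources used here. Reads of genes that overlap on opposite strands may therefore not be separated, among them Atp2a1 with Rabep2, Atp2a2 with Anapc7 and Pln with Cep85l. Larger overlaps are those of Gm43361 with Atp2a2 (3206 exonic bases) and of Gm47644 with Pln (2688), genes with 0 to 3 and 0 to 1 counts. Whether overlaps lowered the counts of Atp2a2 or Pln was not tested. HTSeq's lines that name no gene, 12.2 to 13.0% of pairs, were left out.

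The tests were run with edgeR 4.0.16 under R 4.3.3: TMM scaling, filterByExpr (minimum count 10, total 15), and the quasi-likelihood F test of treatment without covariates. Benjamini-Hochberg adjustment covered 15173 genes, with 0.05 as threshold. A normalised count is scaled to the mean effective library size. TPM used union exon lengths and, as an alternative, longest transcripts of GENCODE M39, which matched 52610 of 53647 genes. Ratios were tested by exact permutation. Library pairs of a condition differed by 9.33 (control) and 4.45 (EDA-A2) chi-square per gene, beyond sampling noise. On simulated data for this comparison, edgeR recovered 190 of 200 genes given a log2 change of 1, and recovery of smaller changes, such as those of the members, was not simulated. Alternatives were DESeq2 1.42.0, other scalings, filters, a replicate block and each library left out. Members and lists were chosen with earlier results of these data known. The calsequestrin ratio was not planned, and its alternatives were chosen after the data were seen. Of the lists, 1 gene, Smim6, was not analysed here. Named genes are all members, in each other list every called gene where at most 3 are and otherwise the 3 with the smallest p, and the 5 genes nearest to the member with the smallest p. Some genes are named outside this rule, among them Jph2, Ryr1, Ryr2, Acta2, Relb, Myl2, Myh2 and Mb. Of these, Myl2, Myh2 and Mb are given for their high values in control replicate 1.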

Additional observations from a re-analysis of the deposited data

How the results depend on the processing

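The fitted changes of the 10 members kept their sign in all alternatives run, 8 below 0 and 2 above, although the TPM mean of Atp2a1 was higher in EDA-A2 myotubes. With no filter beyond 1 count, 86 genes passed in place of 694, and 0 of 10 members and 0 of 76 tested genes of the wider lists did (edgeR; at an unadjusted p under 0.05, 6 members and 16 others; Stim1 had an adjusted p of 0.197 and Hrc of 0.155). With the replicate block, 1066 genes, 3 members (Atp2a2 with an adjusted p of 0.00957, Hrc and Stim1) and 9 wider genes passed. The labels do not say whether libraries with the same replicate number were paired. The deviations of the libraries numbered 1 correlated by 0.06 over genes, which with 2 pairs cannot settle it. DESeq2's Wald test called the same 3 members. With 1 library left out, edgeR has 1 residual degree of freedom and assumes that the lone library varies like the others: 0 to 402 genes, 0 to 1 members and 0 to 3 wider genes then passed, 0 genes without control replicate 1 or 2 (2179 and 2448 at an unadjusted p under 0.05, and 6 and 5 of the members). The median of the members, -0.23, ranged from -0.26 to -0.17 over these fits and was -0.18 with total counts. Total counts moved the median of all genes to 0.05 and the share of higher calls to 71.4% from 53.5%. The summed pump level, a log2 difference of -0.05 in TPM, was -0.14, -0.13 and -0.079 per length when scaled by DESeq2 size factors, upper quartile factors and total counts. The cause of these shifts was not tested. Having 2 libraries a condition limits the precision, and no gene with an absolute log2 fold change under 0.24 was called.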

Other observations

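Between control libraries the members differed in spread. Mb, the oxygen store myoglobin, which was no member, had 39436 normalised counts in control replicate 1 against 22743 to 26588 in the other 3 libraries, the same library that stood high for Pln. Ryr2, the release channel of the heart, had 0 counts in 3 libraries and 1 in EDA-A2 replicate 2.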
